A study of Mus musculus with 800 samples.

Results

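The cells described here were the apical vomeronasal sensory neurons with a high count of Gap43, chosen by raw counts in chambers labelled as holding 1 cell: Gnai2 at 30 or more, Gnao1 under 20, Gap43 at 20 or more and Sox2 under 10. There were 75 such cells in 800 chambers, which is 19.04% of the chambers labelled as holding 1 cell and 28.2% of the apical cells among them (exact Clopper-Pearson 95% interval 22.9 to 34.01). They are set beside the apical cells with the same Gnai2, Gnao1 and Sox2 limits and Gap43 under 10, called Gap43-low below, which were 67.3% of the apical cells. A further 12 apical cells had Gap43 counts of 10 to 19. Levels in single cells are given as counts per 100000 counts of the cell unless raw counts are named, and limits are on raw counts.

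All cells came from male mice of strain B6;129P2-Omptm3Mom/MomJ with the genotype OMP(GFP/wt), in which GFP takes the place of 1 copy of Omp, aged 66 days. Tissue of 7 mice was pooled as 3 and 4 animals, and cells that carried GFP, stained with the DNA dye Hoechst and excluded the dead-cell dye DRAQ7 were sorted and loaded on 1 microfluidic chip for 3′ end RNA sequencing with 5-base molecular identifiers. The sort on GFP made from the Omp locus took cells in which that locus was already active, and this gate bears on every share of immature cells below. The labels do not say which pool a chamber received, so each group counted as 1 unit and no test was made. The 95% intervals of ratios cover counting error only, and those of shares take each cell as a separate draw. Neither covers differences between mice.

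A vomeronasal sensory neuron is born from stem cells of the epithelium, extends an axon to the accessory olfactory bulb, settles on 1 receptor gene and then makes the proteins of the mature cell. Apical neurons express V1R receptors with the G protein subunit encoded by Gnai2, and basal neurons V2R receptors with the one encoded by Gnao1. Gap43 encodes a growth-cone protein of growing axons, Stmn2 a microtubule-destabilizing protein of neurites and Dcx the microtubule-binding doublecortin, and all are widely used as markers of immature neurons, whereas Omp marks mature olfactory and vomeronasal neurons. Sox2 marks stem and supporting cells of the epithelium.

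For orientation on what lies before the start of genes of the immature state, the RefSeq promoter windows (GRCm38.p6, 250 bases before to 50 after the start, 5′ to 3′ on the gene's strand) of Sox11 and Dcx are shown, since Sox11 had the highest ratio of the tested immature-neuron genes and Dcx the higher of the pair of markers not used in the choice. Sox11 encodes a transcription factor of immature neurons. Its window lies at chr12:27342669-27342968 (minus strand), and that of Dcx at chrX:143933170-143933469 (minus strand), the outer of 2 listed for Dcx. Capitals mark matches to CCCNNGGG, the core bound by EBF factors, to CAGCTG, an E-box, and to TAATTA, a homeodomain core. Each of the 3 reads the same on both strands.
Sox11: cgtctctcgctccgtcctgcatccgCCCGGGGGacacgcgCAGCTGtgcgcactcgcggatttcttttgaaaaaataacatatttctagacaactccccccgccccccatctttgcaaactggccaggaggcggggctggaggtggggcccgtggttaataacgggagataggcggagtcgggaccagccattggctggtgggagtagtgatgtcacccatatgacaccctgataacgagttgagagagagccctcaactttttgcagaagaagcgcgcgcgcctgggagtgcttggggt
Dcx: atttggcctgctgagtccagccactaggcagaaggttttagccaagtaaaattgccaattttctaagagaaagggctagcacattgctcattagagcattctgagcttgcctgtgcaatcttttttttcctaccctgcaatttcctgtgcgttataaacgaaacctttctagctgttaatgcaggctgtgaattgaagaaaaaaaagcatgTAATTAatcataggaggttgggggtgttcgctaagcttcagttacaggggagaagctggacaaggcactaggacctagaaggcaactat
The Sox11 window held CCCNNGGG from base 26 and CAGCTG from base 41, and the Dcx window held TAATTA further towards the gene, within 100 bases of its end. Among 3555 tested genes with a window, CCCNNGGG was in 21.2%, CAGCTG in 16.5% and TAATTA in 3.07%. Of 22 immature-neuron genes with a window, 5 held CCCNNGGG, 5 held CAGCTG and 2 held TAATTA. Of 15 mature-neuron genes with a window, 7 held CCCNNGGG, 4 held CAGCTG and none TAATTA. Gap43, Omp, Stmn2 and Gnai2 had no entry in the table used.

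The values that chose the cells are given as a description. Gap43 (chr16:42248442-42340651, minus strand, GRCm38 with GENCODE vM21, as for all gene positions below) had a median of 45 raw counts in the 75 cells, and 0 to 9 with a median of 1 in the Gap43-low cells. The raw counts nearest the limit were 20, 23, 24, 26 and 26 just inside it and 19, 18, 17, 15 and 15 just outside. Per 100000 counts, Gap43 ran from 12.8 to 121.2 in Gap43-positive cells (median 28.8) and from 0 to 36.4 in Gap43-low cells (median 0.516), where the highest values came from shallow cells. Gnai2 had a lowest, median and highest of 41.3, 69.6 and 114.97 counts per 100000 in Gap43-positive cells and of 30.6, 71.8 and 166.5 in Gap43-low cells, so the groups overlapped. Gnao1 had a median of 1 raw count in both groups, and Sox2 a median of 0.

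Total counts per cell were a median of 150620 in Gap43-positive cells (lowest 107974, highest 244923) and 148472 in Gap43-low cells (lowest 19215, highest 260930). Shallow cells were found among the Gap43-low cells only, of which 91.6% had 100000 counts or more, against all 75 Gap43-positive cells. The median number of genes above 0 was 5928 and 6051, and 4654 and 4714 after thinning to 50000 counts, which kept all 75 Gap43-positive and 96.7% of Gap43-low cells. The quartiles after thinning, 4448 to 4965 and 4442 to 5029, overlapped almost wholly. Mitochondrially encoded genes took a median of 1.15% of counts in Gap43-positive cells (0.663 to 1.604%) and 1.23% in Gap43-low cells (0.510 to 13.8%), with overlapping quartiles.

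Gap43-positive cells were spread over the chamber names. Each of the 20 title numbers, the last number in a chamber name, held 1 to 7 of them, and 32 of the 40 title rows held any (0 to 5). Of the cells 42 lay in title numbers 1 to 10 and 33 in 11 to 20. Whether title numbers give a place on the chip is not stated in the labels. Chambers labelled empty had a median Gap43 count of 1 at a median total of 20731 counts. Of these empty chambers 26 (8%, interval 5.29 to 11.5) had 20 raw counts of Gap43 or more, and 15 met all limits of the rule. The part of such signal in the 75 cells was not tested.

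**Figure D1:**
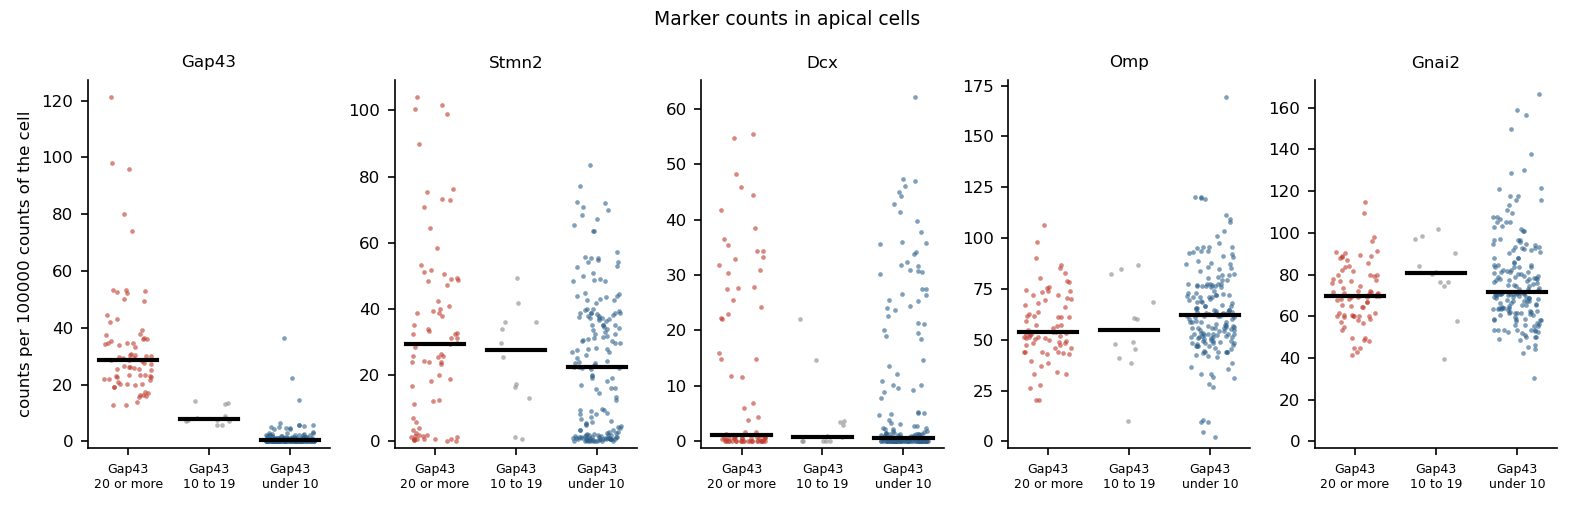
Counts per 100000 counts of the cell (y axis) of Gap43, Stmn2, Dcx, Omp and Gnai2 in apical cells with raw Gap43 counts of 20 or more (75 cells), 10 to 19 (12) and under 10. Each point is 1 cell and each bar a median. Gap43 and Gnai2 were used to choose the cells. Omp overlapped widely (medians 53.97 and 62.1 in the outer groups), and Stmn2 and Dcx were each split into cells near 0 and cells well above it in both groups.

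The immature markers that did not choose the cells were more frequent in Gap43-positive cells, but far from limited to them. The gap differed between title numbers 1 to 10 and 11 to 20. Stmn2 (chr3:8509360-8561606, plus strand) had a lowest level of 0, a median of 29.3 and quartiles of 6.46 and 48.6 counts per 100000 in Gap43-positive cells, and 0, 22.6, 2.01 and 38.4 in Gap43-low cells. The quartiles overlapped, and the highest cells were Gap43-positive. Scaled to all counts other than vomeronasal receptors, the Stmn2 sum was 1.39-fold higher (1.33 to 1.45), and 74.7% of Gap43-positive against 62.01% of Gap43-low cells had 10 raw counts or more (exact intervals 63.3 to 84.01 and 54.5 to 69.2). These shares were 64.3% against 62.2% in title numbers 1 to 10 and 87.9% against 61.7% in 11 to 20.

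Dcx (chrX:143855842-143933311, minus strand) was near 0 in most cells of both groups. Its lowest, median and highest raw counts were 0, 2 and 85 in Gap43-positive cells and 0, 1 and 91 in Gap43-low cells, so both groups reached the same level. The sum was 1.59-fold higher (1.49 to 1.71), with 41.3% against 26.3% of cells at 10 counts or more (intervals 30.1 to 53.3 and 19.97 to 33.3). The counting intervals of such ratios are narrower than the spread between cells, because a gene detected in few cells came in blocks of counts: over 4141 genes at 10 or more counts in 2 to 10% of apical cells, 83.99% of values were 0 and the median of the values at 10 or more was 31. The share of cells at 10 counts or more is therefore given beside each ratio.

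With 20 counts as the limit for each marker, 25 of the 75 Gap43-positive cells had both Stmn2 and Dcx (33.3%, interval 22.9 to 45.2), 28 had Stmn2 only, 3 had Dcx only and 19 had neither. Among Gap43-low cells the corresponding numbers were 24 for both (13.4%, interval 8.78 to 19.3), 77 for Stmn2 only, 16 for Dcx only and 62 for neither. Gap43-positive cells thus held both markers more often, but 1 marker without the others was common in both groups. These intervals take each cell as a separate draw, and the difference was not tested.

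Omp, the marker of the mature cell, had counts in every Gap43-positive cell. Omp (chr7:98143359-98145502, minus strand) had a lowest, median and highest level of 20.3, 53.97 and 106.3 counts per 100000 in the 75 cells and of 2.30, 62.1 and 169.4 in the Gap43-low cells. The Gap43-positive range lay inside the Gap43-low range, and the quartiles overlapped (46.7 to 69.8 and 51.3 to 76.5). Scaled sums gave 0.887 times the Gap43-low level (0.862 to 0.913), a log2 ratio of -0.17, which was -0.061 in title numbers 1 to 10 and -0.30 in 11 to 20. In chambers labelled empty the median was 21 raw Omp counts, beside 89 and 92 in the cells. The lowest Gap43-positive cell had 22 raw Omp counts, close to that empty-chamber median, at a total of 107974 counts. Omp was thus a little lower in Gap43-positive cells and did not set them apart, and with the sort for GFP from the Omp locus the cells are named here by Gap43 and not by an age.

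V1R receptors, which bind pheromones and are co-expressed with Gnai2, were at a similar level in both groups. The summed V1R level was 13.8, 164.4 and 406.1 counts per 100000 (lowest, median, highest) in Gap43-positive cells and 8.67, 176.9 and 703.97 in Gap43-low cells. The highest single V1R gene of a cell had 3.52, 99.1 and 269.4 counts per 100000 against 1.73, 102.4 and 314.8. Both pairs of ranges overlapped, with the highest cells in the Gap43-low group. Scaled sums were 0.944 times the Gap43-low level for all V1R genes (0.929 to 0.959) and 0.995 times for the highest gene (0.974 to 1.02). The top gene took a median of 58.05% of a Gap43-positive cell's V1R counts and 55.9% of a Gap43-low cell's.

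A receptor was called where 1 gene outside V2R family C held at least 10 counts and 50% of a cell's receptor counts. That was so in 36 of 75 Gap43-positive cells (48%, interval 36.3 to 59.9) and 74 Gap43-low cells (41.3%, interval 34.1 to 48.9). All 36 called receptors of Gap43-positive cells were V1R, of 24 different genes. With counts removed that did not stand out from the other chambers of the same title row and title number, 57 of 75 Gap43-positive cells (76%, interval 64.8 to 85.1) and 62.6% of Gap43-low cells (interval 55.04 to 69.7) had a call. The intervals overlapped at either setting. The 75 cells had 45 different top V1R genes, 26 of them in 1 cell each, and 34 of the 45 were also the top gene of a Gap43-low cell.

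The V1R genes on top in most Gap43-positive cells were Vmn1r51 (5 cells), Vmn1r35 and Vmn1r197 (4 each), and Vmn1r236 and Vmn1r58 (3 each). Vmn1r51 (chr6:90122596-90132264) had a median of 196.2 counts per 100000 in its 5 cells, with a lowest of 4.24 and a highest of 269.4, and was the top gene of 2 Gap43-low cells. Vmn1r35 (chr6:66678070-66685906) ran from 86.3 to 110.4 in its 4 cells and was on top in 4 Gap43-low cells. Vmn1r197 (chr13:22324589-22332866) ran from 8.13 to 131.3 and was on top in 1 Gap43-low cell. Vmn1r236 ran from 93.95 to 194.5 and Vmn1r58 from 78.2 to 107.1 counts per 100000, and they were on top in 4 and 5 Gap43-low cells. No receptor was the top gene of more than 5 of the 75 cells. These tallies take the highest V1R gene of every cell. In 3 of the 75 cells it was under 10 raw counts, and in 4 cells (5.33%, beside 7.26% of Gap43-low cells) no V1R count was left after removal of counts shared with chambers of the same title row and title number, among them 1 of the Vmn1r51 and 1 of the Vmn1r197 cells.

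**Figure D2:**
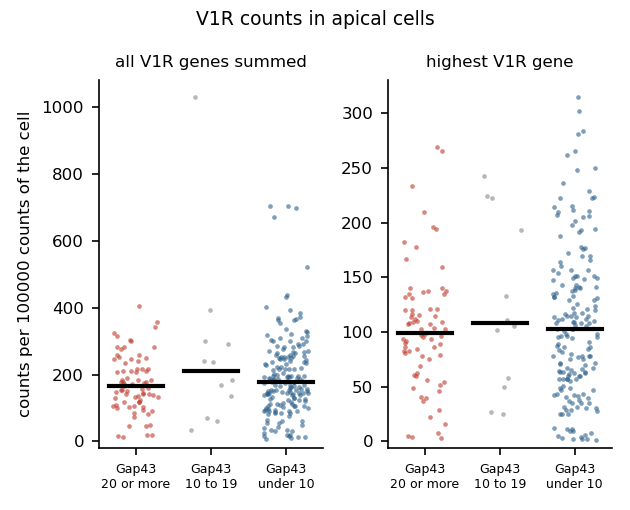
Counts per 100000 counts of the cell (y axis) summed over all V1R genes (left) and of the highest V1R gene (right) in apical cells by raw Gap43 count. Each point is 1 cell and each bar a median. Medians were 164.4 and 176.9 for the sum and 99.1 and 102.4 for the highest gene in the outer groups. A single cell with 11 raw Gap43 counts had a V1R sum of 1031 per 100000.

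Across all genes, few followed Gap43. Of 5150 genes that summed to 50 counts or more over both groups and reached 10 counts in 25% of cells of at least 1 group, 94.8% differed by less than 1.5-fold, and the median log2 ratio was 0.02, with 5% of genes under -0.40 and 5% over 0.51. To pass the size rule, a gene had to be 2-fold apart over all cells. It also had to be 1.5-fold apart the same way in both ranges of title numbers, 1 to 10 and 11 to 20. Receptor genes and the 4 genes of the choice were not counted. With those limits 7 genes (0.136% of those tested) were higher and 3 genes (0.0583%) lower in Gap43-positive cells. Each of them reached the limit of 25% of cells only in the group where it was higher. The gaps in share given for them below are thus partly set by that limit. A further 7 genes were 2-fold apart over all cells but not 1.5-fold apart in both ranges of title numbers, Sox11 among them. With a Gap43 limit of 10 in place of 20, 3 of the 7 higher genes passed, all of them copies of Duxbl described next, and 2 of the 3 lower genes, without Ntpcr.

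The 7 higher genes held 3 copies of a double-homeobox gene. Duxbl1 (chr14:25978577-25990088, plus strand), Duxbl2 (chr14:26118349-26129763) and Duxbl3 (chr14:26257962-26269436) had equal counts in 72 of the 77 apical cells with any, so their reads cannot be told apart and they stand as 1 signal. Duxbl1 had 10 counts or more in 23 of 75 Gap43-positive cells (30.7%, interval 20.5 to 42.4) and 10 Gap43-low cells (5.59%, interval 2.71 to 10.0). Its highest raw count was 59 and 86, so single Gap43-low cells reached the same level, and the scaled sum was 4.22-fold higher (3.73 to 4.79). The shares were 9 of 42 against 8 of 98 cells in title numbers 1 to 10 and 14 of 33 against 2 of 81 in 11 to 20.

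Tdrp (chr8:13952008-13975032, minus strand) was 3.61-fold higher (3.22 to 4.04), with 25.3% against 7.26% of cells at 10 counts or more. Its highest raw counts were 67 and 65, and its median was 0 in both groups. Cnksr1 (chr4:134228041-134238399), a scaffold protein of Ras signalling, was 2.13-fold higher (1.97 to 2.30; 34.7% against 18.4% of cells). Tmem41b (chr7:109972187-109986929), a lipid scramblase of the endoplasmic reticulum, was 2.02-fold higher (1.85 to 2.20; 32% against 15.1%). The remaining gene, 4930550C14Rik, lies outside the rule for named genes and is named after its values were seen; it was 2.35-fold higher (26.7% against 11.2% of cells). In each of these genes most Gap43-positive cells were near 0.

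Among the 3 lower genes, Gng5 (chr3:146499807-146505572, plus strand), a G protein gamma subunit, was at 10 counts or more in 21.3% of Gap43-positive and 36.9% of Gap43-low cells (intervals 12.7 to 32.3 and 29.8 to 44.4), and its scaled sum was 0.477 times as high (0.434 to 0.524). Ntpcr (chr8:125729963-125748235, plus strand), a nucleoside triphosphatase, was at 0.408 times the Gap43-low level (9.33% against 25.1% of cells). AU041133 (chr10:82128013-82153065) was at 0.342 times that level (12% against 26.3%). All 3 were well above 0 in some Gap43-positive cells, with highest raw counts of 55, 99 and 66.

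**Figure D3:**
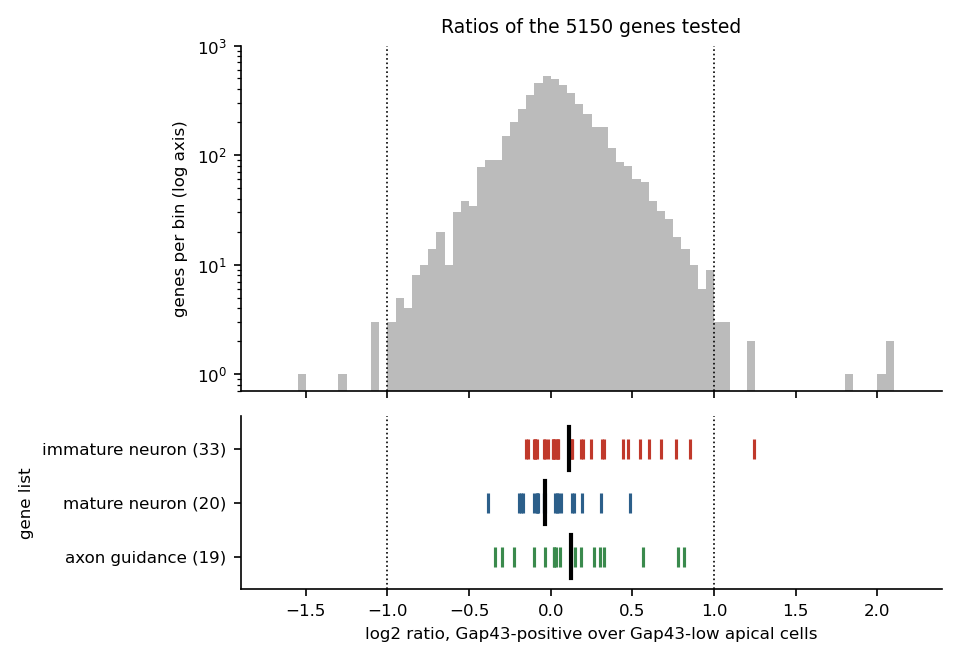
Top, log2 ratio of scaled summed counts, Gap43-positive over Gap43-low apical cells (x axis), and the number of genes per bin on a log axis, for the 5150 genes tested. Bottom, the tested members of 3 gene lists, with a black bar at each list's median. Dotted lines mark 2-fold. The median of the immature-neuron list was 0.11, of the mature-neuron list -0.04 and of the axon-guidance list 0.12, beside 0.02 for all genes tested.

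Genes of the immature neuron were close to equal in the groups, with ratios more often above 1 than below. Of 38 listed genes 33 were tested, and none passed the 2-fold rule in either direction. At 1.5-fold, where 59 genes (1.15% of those tested) were higher and 32 (0.621%) lower, the list gave 2 higher and 0 lower. Of the 33, 24 (72.7%) had a ratio above 1 and 9 below, where 53.5% of all genes tested had one above 1, with a median log2 ratio of 0.11 beside 0.02 for all genes tested. The share of cells at 10 counts or more was higher in Gap43-positive cells by a median of 5.75 percentage points over the list, and by 4.69 points over all genes tested. Against Gap43-low cells of 100000 counts or more, the median over all genes tested was 2.08 points. The 5.75 points of the list used all Gap43-low cells, so 4.69 and not 2.08 is the value to set beside them. Summed over the list, the median cell had 1083 counts per 100000 in the Gap43-positive and 1089 in the Gap43-low group, so the list total was not higher.

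The 2 members past 1.5-fold were Marcksl1 and Hdac2. Marcksl1 (chr4:129513581-129515985, plus strand), which encodes an actin-regulating protein of growing neurites, had 0, 0 and 75 raw counts (lowest, median, highest) in Gap43-positive cells and 0, 0 and 71 in Gap43-low cells, with 25.3% against 10.6% of cells at 10 counts or more (intervals 15.99 to 36.7 and 6.51 to 16.1) and a 1.81-fold higher sum (1.64 to 1.99). Hdac2 (chr10:36974544-37001889), a histone deacetylase, was 1.70-fold higher (1.56 to 1.86; 34.7% against 19.6% of cells). In both, the median cell of either group had 1 count or less, and both reached 25% of cells in the Gap43-positive group only.

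Sox11 (chr12:27334264-27342574, minus strand) had the highest ratio of the list but differed between the ranges of title numbers. Sox11 reached the minimum share of cells for testing in the Gap43-positive group only, so its gap in share is partly set by that limit. Its sum was 2.37-fold higher (2.195 to 2.57), with 32% against 17.3% of cells at 10 counts or more and highest levels of 61.6 and 56.2 counts per 100000. In title numbers 1 to 10 it was at 10 counts or more in 8 of 42 Gap43-positive and 22 of 98 Gap43-low cells, a log2 ratio of 0.04, and in 11 to 20 in 16 of 33 and 9 of 81 cells, a log2 ratio of 2.52. Dcx showed a smaller gap of the same kind, with log2 ratios of 0.22 and 1.14 and shares of 38.1% against 29.6% and 45.5% against 22.2%. Stmn2 had log2 ratios of 0.42 and 0.53, while its shares of cells, given above, differed by more in 11 to 20. Whether the title numbers follow the 2 pools of mice is not given in the labels.

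Other genes of the immature list passed neither rule and had ratios on both sides of 1. Among those with higher ratios, Tubb2a, a beta-tubulin, was 1.46-fold higher (58.7% against 40.8% of cells), Tubb2b 1.36-fold (78.7% against 67.04%), and Dpysl3, a growth-cone protein, 1.52-fold (50.7% against 41.3%). Stmn1 had a median of 46.01 counts per 100000 in Gap43-positive cells (quartiles 37.6 and 60.8) and 43.7 in Gap43-low cells (32.6 and 52.3), a 1.19-fold higher sum. Nhlh2, a basic helix-loop-helix factor of newly made neurons, had medians of 20.3 and 8.51 counts per 100000, a lowest of 0 in both groups and a 1.25-fold higher sum. Several members present in nearly every cell had almost equal levels. Gng8, the gamma subunit of vomeronasal neurons, had medians of 91.9 and 94.8 counts per 100000, Tuba1a 84.3 and 85.1, Calb2 77.8 and 80.3, and Ncam1 69.3 and 67.5, with scaled ratios of 0.989, 1.01, 0.976 and 1.01.

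**Figure D4:**
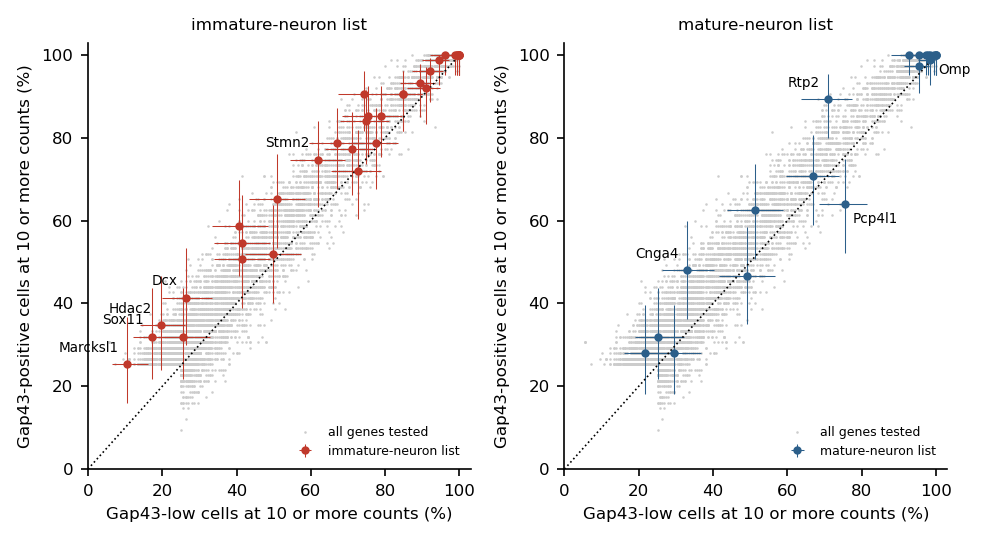
Share of cells at 10 or more counts in Gap43-low cells (x axis, percent) and in Gap43-positive cells (y axis, percent) for the tested genes of the immature-neuron list (left) and mature-neuron list (right), over all 5150 genes tested (grey). Bars are exact 95% intervals and the dotted line marks equal shares. Dcx, Sox11, Hdac2 and Marcksl1 lie above the line, Pcp4l1 below it (64% against 75.4%), and the grey cloud lies above it too, by a median of 4.69 points.

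Genes of the mature neuron, such as those of signal transduction and receptor export, were at about the same level. Of 32 listed genes 20 were tested, none passed at 2-fold or 1.5-fold, 9 had ratios above 1 and 11 below, and the median log2 ratio was -0.04. Pcp4l1 was the lowest, at 0.767 times the Gap43-low level (0.738 to 0.796), with medians of 23.4 and 42.5 counts per 100000. Umodl1 was at 0.880 times (medians 56.6 and 63.6). The G protein gamma subunits Gng13 and Gng2 were at 1.03 and 0.971 times, and the chaperone Rtp1, which takes chemosensory receptors to the membrane, at 1.02 times (medians 51.5 and 51.9). Rtp2, of the same family, was found at 10 counts or more in 89.3% of Gap43-positive and 70.95% of Gap43-low cells, with a scaled ratio of 1.14.

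Genes of receptor choice and its chromatin were likewise close. Of 30 listed genes 19 were tested and none passed either rule, with a median log2 ratio of 0.04. Lhx2, a homeodomain factor of chemosensory neurons, had medians of 27.2 and 25.9 counts per 100000 and 90.7% against 74.3% of cells at 10 counts or more. Meis2, a homeodomain factor, had medians of 38.2 and 36.5. The EBF factors Ebf1, Ebf2 and Ebf3 were at 0.943, 0.908 and 1.01 times the Gap43-low level. The DNA methyltransferase Dnmt3a was 1.40-fold higher (53.3% against 38.5% of cells).

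Of 40 axon-guidance genes 19 were tested, 2 passed the 1.5-fold rule and both were higher, where 1.15% of all genes tested were higher and 0.621% lower. They were Unc5b (chr10:60762593-60831581), a netrin receptor, at 1.76-fold (1.63 to 1.90; 36% against 21.8% of cells), and Tenm4 (chr7:96171246-96911093), a teneurin of synaptic partner matching, at 1.72-fold (1.61 to 1.84; 40% against 25.1%). Ptprs, a receptor phosphatase of axons, had medians of 21.7 and 5.20 counts per 100000 and was found at 10 counts or more in 70.7% of Gap43-positive and 47.5% of Gap43-low cells, with a ratio of 1.48. The adhesion gene Kirrel2 and the ephrin receptor gene Epha5 were at 0.814 and 0.790 times. The list median was 0.12. Unc5b reached 25% of cells in the Gap43-positive group only, and Tenm4 in both groups.

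In 20 tested synaptic genes none passed either rule, and the median log2 ratio was -0.05. Of 18 tested endoplasmic reticulum chaperone genes none passed, with a median of 0.02, and Hspa5 and Hsp90b1 were at 0.968 and 0.970 times the Gap43-low level. Among 15 tested cholesterol synthesis genes 1 passed at 1.5-fold, Lss, which encodes lanosterol synthase and was at 0.656 times (0.603 to 0.713), where 0.621% of all genes tested were lower. The list median was -0.047, and it was -0.14 in title numbers 1 to 10 and 0.077 in 11 to 20. The 15 tested mitochondrially encoded genes had ratios under 1 in all cases, with a median log2 ratio of -0.18, which was -0.33 with each cell weighted equally and -0.11 without cells under 100000 counts. None of 7 tested activity genes passed, and Fos was at 0.9503 times.

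Genes of dividing progenitors were scarce in the Gap43-positive cells. Of 23 listed genes with a row, 3 were tested, and 8 had no count in any of the 75 cells, among them the cycling-cell gene Mki67 and the progenitor factors Neurog1 and Neurod1. By the limit of 3 counts, 0 of 75 cells allows a share of up to 4% of cells with a count, which sets no limit on cells that express the gene. Insm1, a zinc-finger factor that acts late in neuronal precursors, was an exception in level, with 32% of Gap43-positive and 16.2% of Gap43-low cells at 10 counts or more (intervals 21.7 to 43.8 and 11.1 to 22.4) and a ratio of 1.72. Insm1 reached the minimum share of cells for testing in the Gap43-positive group only, so its gap in share is partly set by that limit. It did not pass the 1.5-fold rule in both ranges of title numbers, where its log2 ratios were 0.34 and 1.20.

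Immune, glial and basal-neuron markers were low, while the sustentacular and main olfactory lists held genes found in nearly every cell. Of 15 immune genes with a row, 9 had no count in the 75 cells, including Ptprc, Lyz2, C1qb and Csf1r, and the list summed to 0 to 91.9 counts per 100000 with a median of 0.669, against 0 to 324.8 with a median of 1.06 in Gap43-low cells. Of 15 glial, vascular and connective-tissue genes 4 had none, and the list ran from 0 to 38.7 against 0 to 707.2 counts per 100000, with a median of 0 in both. The sustentacular list had medians of 65.1 and 71.9 counts per 100000 (ranges 21.6 to 136.6 and 16.5 to 364.7), carried by Aqp4, found at 10 counts or more in 97.3% and 98.3% of cells; the supporting-cell gene Cbr2 was found in 20% and 16.8% of cells and in 21.5% of empty chambers. The basal-neuron list had medians of 3.94 and 6.54 counts per 100000 (0 to 97.9 and 0 to 139.7), and Vmn2r1 had 10 counts or more in 1.33% and 0% of cells. Of 11 main olfactory genes 4 were tested, none passed either rule and 3 had ratios above 1, with a median log2 ratio of 0.22 and a median share of cells 13.2 points higher, beside 0.02 and 4.69 points for all genes tested. The list summed to a median of 106.4 counts per 100000 in Gap43-positive and 102.3 in Gap43-low cells. The 4 tested were Gfy (100% against 99.4% of cells at 10 counts or more), Nqo1 (66.7% against 51.4%), Ano2 (62.7% against 51.4%) and Cnga4 (48% against 33%), and 3 others had no count in the 75 cells. Of the transduction genes that define main olfactory neurons, Cnga2 summed to 3 counts over the 75 cells and Adcy3 to 0. The part of these lists in the results was not tested.

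The 75 cells also differed among themselves. In the 25 with both Stmn2 and Dcx, Gap43 ran from 12.95 to 121.2 counts per 100000 with a median of 35.2, and in the 19 with neither from 12.8 to 49.5 with a median of 27.4. Omp had a median of 51.8 (20.3 to 106.3) in the former and 51.4 (38.6 to 90.1) in the latter. Sox11 was at 10 counts or more in 12 of the 25 and 3 of the 19 cells, and Marcksl1 in 8 and 2. Insm1 went the other way, in 10 of 25 and 11 of 19, and Duxbl1 was found in 5 and 6. Their highest V1R genes had medians of 107.9 and 90.4 counts per 100000. The median share of cells at 10 counts or more over all genes tested was 48% and 47.4%, so overall detection was alike.

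All Gap43-positive and Gap43-low cells were also sorted by how many of Gap43, Stmn2 and Dcx reached 20 counts, a description made after the values were seen. There were 62 cells with none (24.4%), 55 with 2, 25 with all 3, and the other 44.1% had 1. Sox11 was at 10 counts or more in 11.3%, 17.9%, 29.1% and 48% of them, Marcksl1 in 9.68%, 11.6%, 20% and 32%, and Hdac2 in 11.3%, 26.8%, 27.3% and 36%. Tenm4 had 24.2%, 28.6%, 23.6% and 60%. The median over all genes tested also increased, from 37.1% to 44.6%, 45.5% and 48%, and in cells of 100000 counts or more from 43.1% to 44.6%, 47.1% and 48%. In those deeper cells Sox11 was found in 13.7%, 17.9%, 31.4% and 48%. Sox11, Marcksl1, Hdac2 and Tenm4 were already higher in Gap43-positive cells, and Gap43 is 1 of the 3 markers. Other genes had no such order over the same classes of all cells. Sox4 was in 8.1%, 7.1%, 10.9% and 4%, Crmp1 in 43.55%, 56.25%, 40% and 64%, and Insm1 in 19.35%, 22.3%, 10.9% and 40%.

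Omp and receptor levels were compared over the same classes. Omp had medians of 63.8, 58.97, 57.5 and 51.8 counts per 100000 from none to all 3 markers, a decrease in the medians with quartiles that overlapped across all 4 classes (53.6 to 76.2 with none and 43.1 to 66.9 with 3). In raw counts the medians were 87, 93, 93 and 80, and 51 of the 62 cells with none and 51 of the 55 with 2 had 100000 counts or more, against every cell of the other classes. Summed V1R levels had medians of 220.04, 161.2, 150.98 and 177.8 counts per 100000, with no such order, and Gng8, a member of the immature list, had 92.8, 94.1, 91.9 and 97.1.

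**Figure D5:**
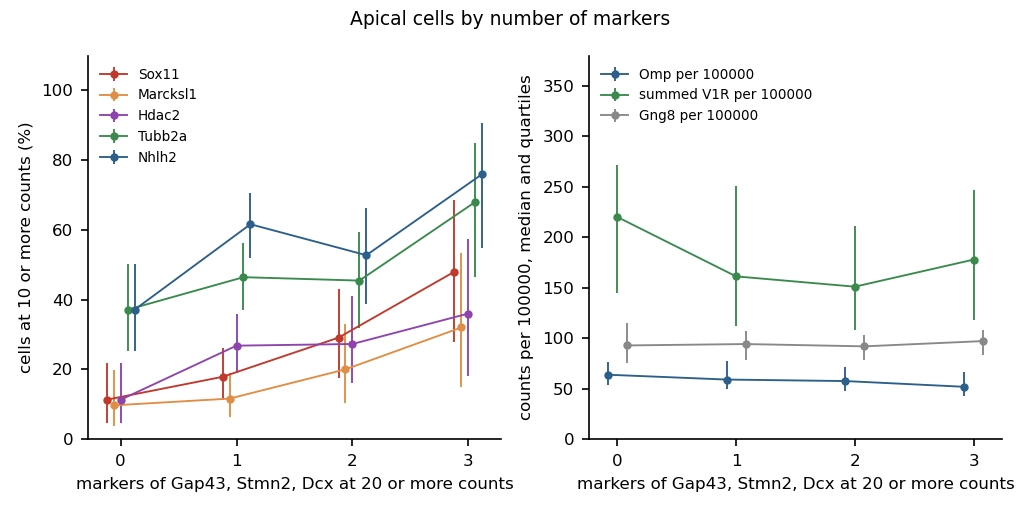
Apical cells by the number of Gap43, Stmn2 and Dcx at 20 or more raw counts (x axis; 62, 55 and 25 cells with 0, 2 and 3, the remaining 44.1% with 1). Left, share of cells at 10 or more raw counts (y axis, percent, exact 95% intervals). Right, median counts per 100000 with quartiles. Sox11 goes from 11.3% to 48% of cells, while the median of Omp goes from 63.8 to 51.8 with overlapping quartiles. The genes on the left are a selection, and Sox4, not shown, went from 8.1% to 4%.

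The same Gap43 limits were applied to basal cells (Gnao1 at 30 or more, Gnai2 under 20, Sox2 under 10), which gave 13 Gap43-positive cells of 59 (22.03%, interval 12.3 to 34.7) and 46 Gap43-low cells. Stmn2 had medians of 26.8 (2.12 to 91.6) and 3.71 (0 to 70.3) counts per 100000 there, Dcx 0.823 (0 to 77.4) and 0 (0 to 43.2), and Omp 55.8 (28.4 to 123.4) and 56.9 (14.7 to 128.5). Basal scaled ratios, as log2, were 0.94 for Stmn2, 1.97 for Dcx, 1.62 for Marcksl1 and 0.05 for Omp, beside apical values of 0.47, 0.67, 0.85 and -0.17. Duxbl1 was at 1.38 in basal beside 2.08 in apical cells and Tdrp at 0.82 beside 1.85, whereas Cnksr1 was at -0.89 beside 1.09 and Gng5 at 0.71 beside -1.07. Marcksl1, Tdrp and Cnksr1 reached 10 counts in under 25% of cells of either basal group, so their basal ratios rest on few cells. Marcksl1 did so in 3 of 13 Gap43-positive and 2 of 46 Gap43-low basal cells, Tdrp in 2 and 4, and Cnksr1 in 1 and 9. Of the 59 genes higher by the 1.5-fold rule in apical cells, 41 were tested in basal cells and 28 of these had a ratio above 1, where 2785 of all 5495 genes tested in basal cells did. Of the 32 lower genes 25 were tested in basal cells, and 13 of these had a ratio below 1, near the share over all genes tested there. Of the 3 genes lower by the 2-fold rule 1 was tested in basal cells, Gng5, and its ratio was above 1. The basal median of the immature-neuron list was 0.08, beside 0.009 for all genes tested in basal cells. Of its 32 genes tested there, 21 had a ratio above 1. The difference between apical and basal cells was not tested.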

How the data were processed

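The deposited values were counts of unique molecular identifiers per gene and chamber, in 1 table of 28963 genes with no normalization by the authors and with values from 0 to 662, per the file headers and the values. Reads were aligned and counted by the authors on GRCm38 (mm10), and per the submitters' processing notes the tools were SAMtools 1.5, Subread with featureCounts 1.6.1, UMI-tools 0.5.3, bcl2fastq and STAR 2.5.4b. The name of the deposited data holds the words multimapping and fractional. How reads that map to several places were assigned is not described further in the sources used here. The table's 1 column of reads without a chamber was not used.

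The members, the gene lists and the rule for named genes were chosen with earlier results of these data known. Counts were summed over the cells of a group and divided by the group's total without the vomeronasal receptor genes. A sum under 3 counts was set to a floor of 3. Ratios have exact conditional binomial 95% intervals, which treat each count as a separate molecule. Shares have exact Clopper-Pearson 95% intervals, which treat each cell as a separate draw. The size rule named the genes of the text, together with Omp, the genes of the choice, Stmn2, Dcx, list members, defining markers of other cell types and the 5 V1R genes on top in most cells. Unnamed gene models were left out. A minimum of 10 counts in a cell stood for detection, since chambers labelled empty held 1 or 2 counts of many genes. There were 394 chambers labelled as holding 1 cell, 266 of them apical and 179 of these Gap43-low; 325 chambers were labelled empty. Chambers labelled with several cells were left out, without a further search for doublets. Only the 2-fold size rule was run on simulated counts, with seeded changes larger than 2-fold. The other steps were not simulated. Python 3, NumPy, SciPy, pandas and matplotlib were used. Alternatives were other scalings, limits, minima and folds, thinning, each range of title numbers, collision correction for 1024 identifiers, and chambers or cells added or left out. Genes of the fixed lists that are not in the table were not analysed here.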

Additional observations from a re-analysis of the deposited data

How the results depend on the processing

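The limits bear on counts of genes more than on levels. As percent of the genes tested, 0.136% were higher and 0.0583% lower. Under the planned settings these became 0.272% and 0.136% with each cell weighted equally, 0.232% both ways after thinning to 50000 counts, and 0.573% and 0.191% without cells that held Cbr2 or Cd74. Only the lower genes moved by over 1.5 times with a Gap43 limit of 30 (0.292%), of 10 (0.117%) or of 5 for Gap43-low cells (0.136%), with limits on counts scaled to 150000 (0.139%), without each gene's highest cell (0.272%), with putative single-cell chambers added (0.0387%) and, chosen after seeing the data, without cells under 100000 counts (0.0955%). Of the 7 higher and 3 lower genes, 3 and 2 passed with a Gap43 limit of 10 (lost were 4930550C14Rik, Cnksr1, Tdrp, Tmem41b and Ntpcr), 5 and 2 with scaled limits (lost were Tdrp, Tmem41b and Ntpcr), 6 and 1 with putative chambers added (lost were Tmem41b, Gng5 and Ntpcr), and Gng5 was lost without Cbr2 or Cd74 cells. Tmem41b was also the single gene lost with a median-of-ratios size factor, a Gap43 limit of 30, a Gap43-low limit of 5, each gene's highest cell left out, and without cells under 20 Omp counts or under 100000 counts. Without a minimum share of cells 3.56% and 7.38% passed, without any minimum 2.81% and 5.21%, at 1.5-fold 1.15% and 0.621%, and at 3-fold 0.0777% and 0%. Each range of title numbers alone drops the condition on both ranges by construction. It gave 1.35% and 0.979% in title numbers 1 to 10 and 2.80% and 1.21% in 11 to 20. The Omp log2 ratio of -0.17 was -0.061 and -0.30 there. The V1R sum, -0.083 as log2, was -0.11 with a median-of-ratios size factor, -0.18 with cells weighted equally, -0.14 thinned, -0.13 with scaled limits, -0.12 without Cbr2 or Cd74 cells and 0.027 with a Gap43 limit of 10. The last rests on 1 cell with a V1R sum of 1995 raw counts, without which it was -0.065. The progenitor list, with 3 genes tested, had a median of -0.23 that was 0.41 with a Gap43-low limit of 5. It was 0.089 in title numbers 1 to 10 and 0.60 in 11 to 20. With putative single-cell chambers added it was 0.26 and, chosen after seeing the data, 0.28 without cells under 20 Omp counts. The activity list, 0.14, was -0.079 in title numbers 1 to 10. The immature-neuron median, 0.11, ran from 0.055 with a Gap43 limit of 10 to 0.12 thinned, and the mature-neuron median, -0.037, from -0.073 in title numbers 11 to 20 to 0.0036 with scaled limits. No paired analysis was possible because no test was made and the labels pair no chambers.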
